A study of Homo sapiens with 12 samples.

Results

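Integrins and laminins are the receptor and ligand sides of cell adhesion to the basement membrane. The accessibility around 31 of their genes, out of 19982 protein-coding genes in the annotation, was examined by ATAC-seq, in which a transposase cuts and tags open chromatin. For each gene, the 100-bp bins of accessible chromatin within 20 kb of any transcription start site (TSS) annotated in GENCODE v44 were summed into a window. The 31 members comprised 13 integrin α-subunit genes, 8 integrin β-subunit genes and 10 laminin chain genes, chosen by family and not by any measured value. The DU-145 table held 2656 of its 709366 bins in these windows, and every member had at least 1. The BT-549 table held 1539 of 472994 bins, with none for ITGA8 or LAMA1, so that 29 members were measured there. DU-145 is a human prostate cancer line and BT-549 a human triple-negative breast cancer line. Both carried tet-MUC1shRNA, a hairpin against MUC1 that doxycycline (DOX) switches on, in a pool selected with puromycin after transduction. Each line gave 3 libraries from cells treated with vehicle (0.1% DMSO) and 3 from cells treated with DOX, for 7 days, so that 12 libraries fell into 4 groups. BT-549 cells were grown with 10 μg/ml insulin. Cells with a control hairpin and DOX were not analysed here, so an effect of the drug and one of losing MUC1 fall into the same contrast and cannot be told apart.

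An integrin is a pair of an α and a β subunit that spans the plasma membrane, binds matrix outside the cell and recruits talin and kindlin inside it. A laminin is a heterotrimer of an α, a β and a γ chain that is laid down in basement membranes. In epithelia, integrin ITGA6/ITGB4 anchors cells to laminin in hemidesmosomes, whereas the many partners of ITGB1 serve focal adhesions, and loss of polarity and invasion of carcinoma cells are accompanied by changes in both. ATAC-seq reads how open the DNA is, and neither transcript nor protein was measured here.

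Stretches of DNA from 7 of the regions described below are shown first. ITGB1 is shown for its promoter, called in opposite directions in the lines, and for an intron region called in BT-549 alone. ITGA4 and LAMA2 hold the largest falls and ITGA2 the largest rise among the DU-145 regions named here, and ITGA5 and LAMA4 are further regions that rose, in DU-145 and BT-549 respectively. Each is 200 bases of the GRCh38 plus strand around the highest bin. Capitals mark 3 short motifs on either strand, namely AP-1 (TGAGTCA or TGACTCA), the GC box (GGGCGG or CCGCCC) and TEAD (GGAATG or CATTCC). Of such 200-base stretches over all regions, 26.9% in DU-145 and 14.8% in BT-549 held AP-1 letters, 17.0% and 25.2% held a GC box, and 16.1% and 13.6% held TEAD letters. A match is a run of letters and no evidence of binding.
ITGB1 promoter, chr10:32958351-32958550, 126 bp upstream of a start: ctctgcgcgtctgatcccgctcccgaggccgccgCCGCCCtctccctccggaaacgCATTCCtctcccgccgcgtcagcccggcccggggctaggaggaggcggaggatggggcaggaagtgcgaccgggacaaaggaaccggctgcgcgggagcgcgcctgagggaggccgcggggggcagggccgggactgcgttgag
ITGB1 intron, chr10:32980551-32980750: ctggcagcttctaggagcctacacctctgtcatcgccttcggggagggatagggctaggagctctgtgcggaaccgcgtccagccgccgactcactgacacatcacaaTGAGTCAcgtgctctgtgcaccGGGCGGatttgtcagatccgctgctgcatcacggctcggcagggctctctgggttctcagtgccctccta
ITGA5 intron, chr12:54411451-54411650: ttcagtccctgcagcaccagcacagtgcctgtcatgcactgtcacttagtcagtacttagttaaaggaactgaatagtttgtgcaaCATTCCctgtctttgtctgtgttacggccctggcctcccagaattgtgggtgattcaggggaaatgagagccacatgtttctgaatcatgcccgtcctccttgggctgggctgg
LAMA4 upstream, chr6:112218651-112218850: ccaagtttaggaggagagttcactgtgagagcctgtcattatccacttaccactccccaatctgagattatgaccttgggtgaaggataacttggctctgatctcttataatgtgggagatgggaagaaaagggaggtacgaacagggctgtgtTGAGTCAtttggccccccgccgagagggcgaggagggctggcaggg
ITGA2 intron, chr5:53005051-53005250: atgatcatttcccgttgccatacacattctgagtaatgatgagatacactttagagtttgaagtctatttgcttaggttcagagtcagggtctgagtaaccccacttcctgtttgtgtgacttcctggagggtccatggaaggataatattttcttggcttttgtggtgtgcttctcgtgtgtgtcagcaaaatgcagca
ITGA4 intron, chr2:181484151-181484350: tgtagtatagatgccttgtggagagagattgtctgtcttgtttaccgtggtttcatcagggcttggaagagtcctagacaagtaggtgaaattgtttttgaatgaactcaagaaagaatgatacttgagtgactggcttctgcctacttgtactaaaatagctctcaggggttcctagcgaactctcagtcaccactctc
LAMA2 intron, chr6:129110951-129111150: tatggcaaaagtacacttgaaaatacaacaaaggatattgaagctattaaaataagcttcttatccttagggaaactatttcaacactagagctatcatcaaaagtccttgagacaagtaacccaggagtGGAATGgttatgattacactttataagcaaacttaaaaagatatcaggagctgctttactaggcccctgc
The ITGB1 promoter stretch held a GC box and TEAD letters, and the ITGB1 intron stretch held AP-1 letters and a GC box. TEAD letters stood alone in ITGA5 and LAMA2 and AP-1 letters alone in LAMA4, whereas none of the 3 motifs was found in the ITGA2 and ITGA4 stretches. The LAMA4 stretch lay upstream of an internal start and inside the gene.

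The coverage summed over all bins of a library ranged from 12370094 to 25232000 in DU-145. In BT-549 it was 9142900 to 13606129 with vehicle but 2502510 to 3267024 with DOX, so the DOX values of this line are the least precise. Values below are CPM, coverage scaled to the same total in every library and adjusted by TMM factors. The member windows took 0.361 to 0.404% of the coverage in DU-145 and 0.281 to 0.302% in BT-549. Replicates of a group correlated at r of 0.992 to 0.995 across gene windows in DU-145, and in BT-549 at 0.988 to 0.993 among vehicle and 0.968 to 0.974 among DOX libraries (log2 scale, Pearson). The MUC1 window was at 202, 216 and 210 in DU-145 vehicle against 188, 214 and 198 in DOX, and at 408, 490 and 427 in BT-549 vehicle against 413, 441 and 393 in DOX. A hairpin acts on the transcript, so this window does not check the silencing. Of the markers examined, HOXB13 and FOLH1 had no bin in DU-145, and ESR1, PGR and SPDEF had none in BT-549. The epithelial markers EPCAM, KRT8 and KRT18 had none in BT-549 and the mesenchymal markers CDH2 and TWIST1 none in DU-145. In such bulk samples, fewer cells of a kind and less open chromatin per cell cannot be told apart.

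In DU-145 cells, DOX treatment was accompanied by higher accessibility around laminin genes LAMA4 and LAMB3 and integrin genes ITGA2 and ITGB5, and by lower accessibility around ITGA4 and ITGB1. At an adjusted p under 0.05, 11 of the 31 windows were higher and 6 were lower. Over all 17803 gene windows tested, 48.7% were called (24.2% higher and 24.5% lower), against 54.8% of the members. The members' median log2 fold change was 0.08, beside -0.01 over all windows, and the members ranged from -1.82 to 1.42. With TMM factors taken from accessible regions, an alternative chosen after seeing the data that put the median of all windows at -0.26, the split became 7 higher and 13 lower. With windows of 5 kb 11 were higher and 2 lower, and with bins nearest to the member's own TSS alone 10 were higher and 3 lower. Cell-type markers moved in the same contrast. Of 10 epithelial markers, 6 were higher (among them ST14 at 0.64, CDH1 at 0.51 and EPCAM at 0.42) and 1 was lower (CLDN4 at -0.39), with a summed coverage of 1203 to 1274 in vehicle and 1334 to 1474 in DOX. Of 6 mesenchymal markers with bins, 2 were higher (PRRX1 at 1.5 and FN1 at 0.93) and 1 lower (SNAI2 at -0.35), with sums of 261 to 282 and 276 to 289. Their part in the members' values was not tested.

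Of the 10 laminin windows in DU-145, 4 were higher with DOX and 2 lower. LAMA4, an α chain of vessel and mesenchymal basement membranes, was at 12.7, 13.2 and 13.5 in vehicle and at 40.0, 31.7 and 33.9 in DOX. All DOX libraries lay above all vehicle libraries, and the log2 fold change of 1.42 ± 0.12 (SE) was the largest rise among the members (adjusted p = 1.02e-14). LAMB3, the β chain of the laminin beneath stratified epithelia, stood at 168, 166 and 157 in vehicle and 308, 285 and 288 in DOX. Its groups did not overlap either, and the change was 0.84 ± 0.06 (adjusted p = 8.79e-18). LAMA3, the α chain that pairs with LAMB3, was at 94.6 ± 8.23 (SD, n = 3) in vehicle and 97.2 ± 4.71 in DOX and was not called (0.04 ± 0.07). LAMC1, the most widely used γ chain, rose by 0.22 ± 0.06 (adjusted p = 0.00241), and LAMA5, the main α chain of adult epithelia, rose by 0.16 ± 0.06 (adjusted p = 0.0161), but both were below 0 with factors from accessible regions, at -0.04 and -0.10. The LAMA5 call was lost with library sums (0.09), without DOX replicate 2 (0.11), without vehicle replicate 1 (0.14) and without vehicle replicate 3 (0.15). LAMB1, the common β chain, was at 23.8, 26.4 and 26.3 in vehicle against 26.1, 24.3 and 28.8 in DOX, which overlapped, and it was not called. Lower windows were those of LAMA1, an α chain of early basement membranes, at -0.26 ± 0.07 (adjusted p = 8.84e-04), and of LAMB2, a β chain of kidney and synaptic basement membranes, at -0.25 ± 0.09 (adjusted p = 0.0207). LAMA2, the α chain of muscle, and LAMC3 were not called, at 0.06 ± 0.09 and -0.01 ± 0.11.

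Of the 21 integrin windows in DU-145, 7 were higher with DOX and 4 lower. ITGA2, which pairs with ITGB1 to bind collagen, was at 78.8, 70.8 and 70.3 in vehicle and 131, 132 and 126 in DOX, a change of 0.82 ± 0.07 (adjusted p = 1.17e-14). ITGB5, a partner of ITGAV in vitronectin binding, stood at 71.1, 72.6 and 75.1 in vehicle and 115, 114 and 115 in DOX (0.65 ± 0.07; adjusted p = 1.84e-11). In both genes the 3 DOX libraries lay close together and above every vehicle library. ITGA5, the α subunit of the fibronectin receptor, rose by 0.45 ± 0.07 (adjusted p = 1.28e-07), although 67.9% of its window's coverage lay nearest to ZNF385A. ITGA8, a partner of ITGB1 in kidney development, rose by 0.93 ± 0.18 from a low level of 5.91 ± 1.70 (SD, n = 3; adjusted p = 1.70e-05). The α subunit ITGAV was at 79.2, 65.0 and 61.1 in vehicle and 70.7, 55.0 and 67.5 in DOX, and was not called (-0.09 ± 0.09), although it was at -0.35 and called with factors from accessible regions.

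Among laminin receptor genes of DU-145 cells, ITGA6 was higher and ITGB1 lower, and the call of ITGB4 was lost under several settings. ITGA6, shared by hemidesmosomes and focal adhesions, was at 80.3, 74.1 and 75.4 in vehicle and 94.0, 104 and 100 in DOX (0.38 ± 0.07; adjusted p = 1.38e-05). The rise was not called with factors from accessible regions (0.12) or with a window of 5 kb (0.12). ITGB4, its hemidesmosomal partner, was at 69.7, 70.4 and 75.4 in vehicle and 71.7, 92.2 and 80.1 in DOX. These groups overlapped, and the call (0.18 ± 0.08; adjusted p = 0.0460) was lost with DESeq2 (0.19), limma (0.17), library sums (0.12), bins nearest to its own TSS (0.10), a window of 5 kb (0.17) and factors from accessible regions, where it was -0.07, and on leaving out DOX replicate 2 (0.09), DOX replicate 3 (0.20), vehicle replicate 1 (0.17) or vehicle replicate 2 (0.17). ITGA3, another laminin receptor, was not called (0.12 ± 0.06), and was -0.14 with factors from accessible regions. It was called without DOX replicate 1 (0.16; adjusted p = 0.0162) and, with the replicate number as a block, at 0.11. ITGB1, the β subunit shared by the largest group of these receptors, was at 214, 236 and 234 in vehicle and 169, 193 and 184 in DOX, with no overlap between the lower DOX group and vehicle (-0.32 ± 0.06; adjusted p = 1.18e-05).

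Among the leukocyte-type integrins, ITGA4, which binds VCAM1 and fibronectin, gave the largest fall of any member in DU-145. Its 11 bins held 13.4, 11.3 and 11.4 in vehicle and 5.12, 2.43 and 3.0 in DOX (-1.82 ± 0.20; adjusted p = 6.20e-11). ITGB2, the β subunit of leukocytes, rose by 0.50 ± 0.06 (adjusted p = 1.18e-09), with 48.7% of its window nearest to PTTG1IP. ITGB7 fell by 0.24 on the log2 scale, and ITGA10, which is not of this type, fell by 0.23. The coverage of these windows lay mostly nearest to other genes (51.4% nearest to RARG, and 43.3% nearest to ANKRD35, respectively). The members ITGA1, ITGA2B, ITGA7, ITGA9, ITGA11, ITGB3, ITGB6 and ITGB8 were not called, with log2 fold changes between -0.10 and 0.29.

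**Figure D1:**
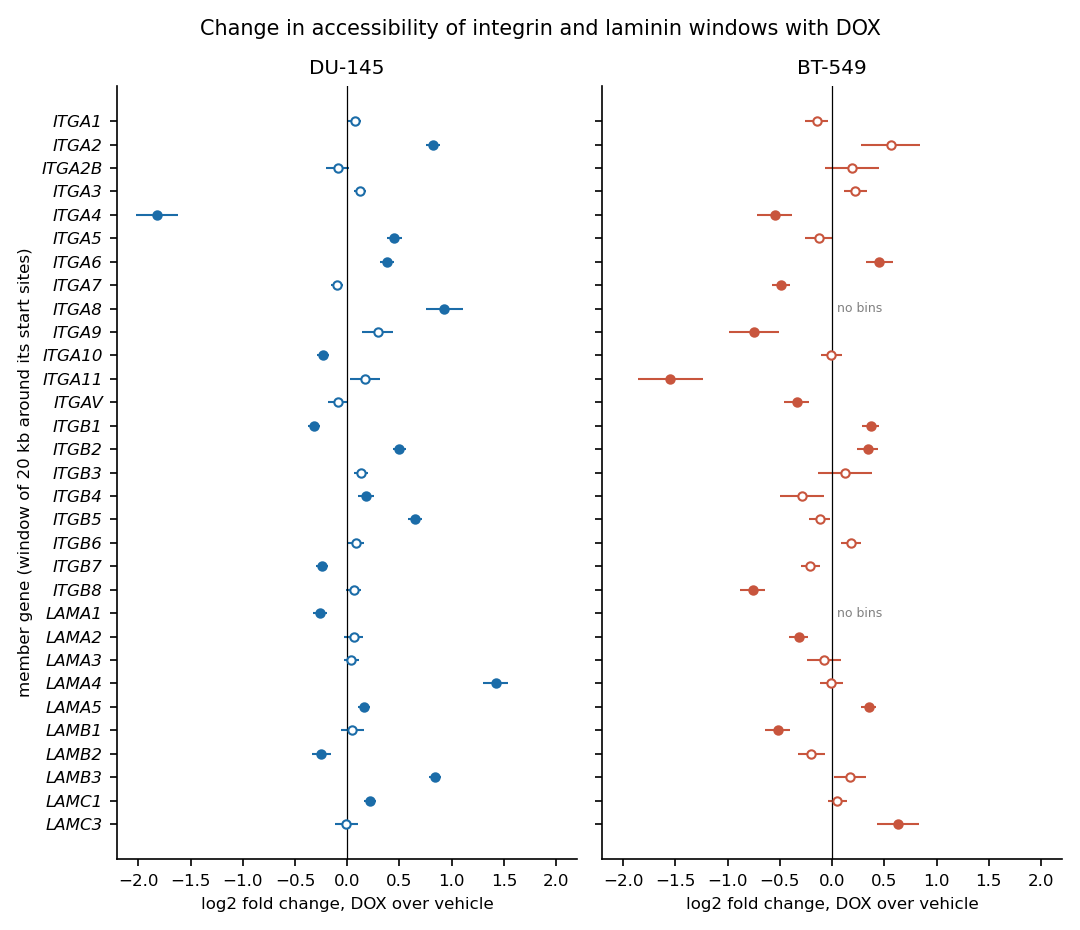
Log2 fold change of each member's window with DOX (horizontal axis, bars ± SE) for DU-145 at left and for BT-549 at right, 3 libraries against 3, with filled points for an adjusted p under 0.05. LAMA4 lay farthest right at 1.42 and ITGA4 farthest left at -1.82 in DU-145, whereas ITGA11 lay farthest left at -1.55 in BT-549 and ITGB1 was on opposite sides of 0.

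In BT-549 cells, window sums were lower with DOX around integrin genes ITGB8, ITGA11, ITGA9 and ITGAV and laminin genes LAMB1 and LAMA2. They were higher around ITGB1, ITGA6, LAMA5 and LAMC3. Of the 29 windows tested, 5 were higher and 8 lower. Of all 16498 gene windows, 30.2% were called (15.3% higher and 14.9% lower), against 44.8% of the members. The members' median log2 fold change was -0.08, beside -0.00 over all windows, with a range from -1.55 to 0.63. Without vehicle replicate 1 the counts were 3 higher and 5 lower, without DOX replicate 1 they were 3 and 6, and with factors from accessible regions, where the median of all windows was 0.15, they were 8 and 4. With windows of 5 kb 2 were higher and 6 lower. Of 8 mesenchymal markers, ZEB1 (0.96) and VIM (0.40) were higher and FN1 (-0.88) lower, with a summed coverage of 701 to 747 in vehicle and 783 to 843 in DOX. Of 7 epithelial markers with bins, CLDN7 (0.70) and CLDN4 (0.35) were higher and KRT19 (-0.45) lower, with sums of 488 to 526 and 544 to 669. Their part in the members' values was not tested.

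Of the 20 integrin windows in BT-549, 3 were higher with DOX and 6 lower. ITGB8, the ITGAV partner that binds latent TGF-β, was at 116, 90.0 and 124 in vehicle and 64.5, 64.2 and 65.8 in DOX (-0.76 ± 0.12; adjusted p = 3.08e-06). The vehicle libraries were spread and the DOX libraries nearly equal, with no overlap. ITGA11, a collagen receptor of fibroblasts, fell from 12.5, 11.9 and 13.9 to 2.59, 4.34 and 5.69 over 9 bins (-1.55 ± 0.31; adjusted p = 1.50e-04). ITGA9 fell by 0.75 on the log2 scale and ITGA4 by 0.55, each with no overlap between groups. Each of these windows held 1 accessible region. Scaled by factors from all regions, that region was not called for ITGA9 (-0.59, adjusted p = 0.0597). The ITGA4 region was not called either (-0.39, adjusted p = 0.0872), and its groups overlapped. ITGAV was at 80.8, 85.6 and 86.7 in vehicle and 77.3, 56.3 and 66.7 in DOX (-0.34 ± 0.12; adjusted p = 0.0297). That call was lost with library sums (-0.28), with a GC correction (-0.28), with factors from accessible regions (-0.18), with a window of 5 kb (-0.20), and without DOX replicate 2 (-0.23), DOX replicate 3 (-0.34), vehicle replicate 1 (-0.37), vehicle replicate 2 (-0.32) or vehicle replicate 3 (-0.32). ITGA7, a muscle laminin receptor, fell by 0.49 on the log2 scale (adjusted p = 1.61e-05), but 54.2% of its window lay nearest to CD63 and the bins nearest to its own TSS gave -0.15 (adjusted p = 0.604). ITGB5 was not called, at 119 ± 6.02 (SD, n = 3) in vehicle and 109 ± 3.95 in DOX. ITGA5 and ITGA3 were not called either, at -0.13 ± 0.13 and 0.22 ± 0.11, with ITGA5 at 0.03 and ITGA3 at 0.37, then called, under factors from accessible regions. ITGB4, at 22, 23.2 and 22.4 in vehicle and 13.1, 19.5 and 22.1 in DOX, was not called.

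The rises in BT-549 included ITGB1, which stood at 270, 296 and 238 in vehicle and 314, 387 and 338 in DOX. The groups did not overlap (0.37 ± 0.08; adjusted p = 8.08e-04), although a window of 5 kb gave 0.20 and no call. ITGA6 was at 48.5, 52.1 and 55.2 in vehicle and 71.3, 62.9 and 77.7 in DOX (0.45 ± 0.13; adjusted p = 0.00584). Its call was lost without DOX replicate 3 (0.37), without vehicle replicate 1 (0.40) and with a window of 5 kb (0.34). ITGB2 rose by 0.34 ± 0.10 (adjusted p = 0.0109), with 66.2% of the window nearest to PTTG1IP.

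BT-549 laminin genes fell and rose in different chains. LAMB1 was at 81.7, 83.6 and 80.4 in vehicle and 60.0, 46.4 and 64.0 in DOX, without overlap (-0.52 ± 0.12; adjusted p = 0.00126). LAMA2 was at 254, 241 and 280 in vehicle and 177, 226 and 217 in DOX (-0.32 ± 0.09; adjusted p = 0.00513). The LAMA2 call was lost without DOX replicate 1 (-0.22), without vehicle replicate 3 (-0.26), with a GC correction (-0.12) and with factors from accessible regions (-0.16). LAMA5 was at 383, 424 and 411 in vehicle and 556, 490 and 507 in DOX, with all DOX libraries higher (0.35 ± 0.07; adjusted p = 2.47e-04), and 31.5% of its window lay nearest to ADRM1. LAMC3, a γ chain, rose by 0.63 ± 0.20 (adjusted p = 0.0123). LAMC1 was at 159, 164 and 163 in vehicle and 164, 168 and 172 in DOX and was not called (0.05 ± 0.09). LAMA4, LAMB2, LAMA3 and LAMB3 were not called, with log2 fold changes from -0.20 to 0.17. The members ITGA1, ITGA2, ITGA2B, ITGA10, ITGB3, ITGB6 and ITGB7 were not called, with log2 fold changes between -0.21 and 0.56, the highest being ITGA2, which rests on 1 DOX library at 24.1 beside 9.64 and 9.83.

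**Figure D2:**
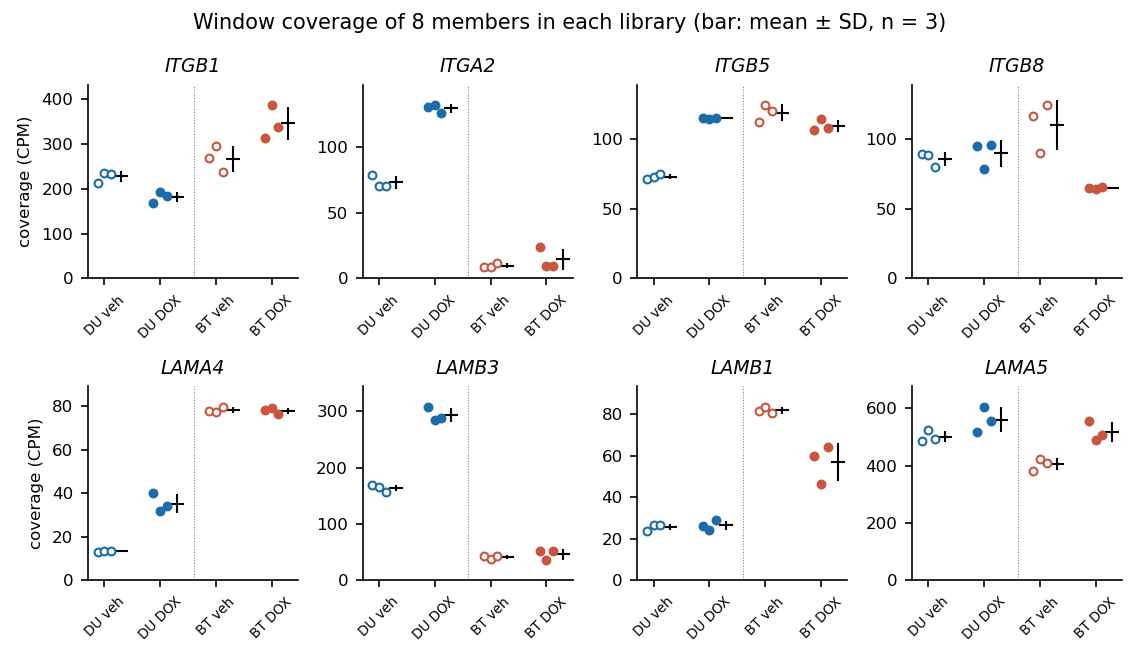
Window coverage in CPM (vertical axis, from 0) of 8 members in each library, open points for vehicle and filled points for DOX, with the mean ± SD (n = 3) beside them; the dotted line separates the tables, whose bins differ. ITGB1 fell in DU-145 (169 to 193 in DOX, 214 to 236 in vehicle) and rose in BT-549, and LAMB3 rose in DU-145 and overlapped in BT-549. Over shared bins, the ITGB1 fall in DU-145 was not called (-0.13), and the DOX effect on LAMB3 was not called different between the lines (-0.13 ± 0.15).

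Whether the DOX effect differed between the lines was tested for the 28 members with bins in both tables, using those bins only. The effect (BT-549 minus DU-145) was higher for 3 members and lower for 10, so that 46.4% were called beside 31.3% of all 15889 windows (15.4% higher and 15.9% lower). The number higher was 1 without BT-549 DOX replicate 1, without DU-145 DOX replicate 1 or without DU-145 vehicle replicate 3, and 7 with factors from accessible regions. For ITGB8 the difference was -0.98 ± 0.15 (adjusted p = 1.31e-06), from 0.14 in DU-145 and -0.84 in BT-549. LAMA4 rose by 2.10 in DU-145 over its 12 shared bins and stood at 0.44 in BT-549, which was not called, a difference of -1.66 ± 0.27 (adjusted p = 4.46e-06). ITGB5 gave -0.69 ± 0.12 (adjusted p = 1.68e-05), and ITGA5 gave -0.71 ± 0.14 (adjusted p = 1.71e-04). ITGB1 was the member called in opposite directions in the whole windows of both lines, whose bins differ. Over shared bins it was at -0.13 ± 0.08 in DU-145, which was not called, and at 0.41 ± 0.08 in BT-549, and the difference of 0.54 ± 0.11 was called (adjusted p = 2.45e-04). LAMA2 differed by -0.63 ± 0.15 (adjusted p = 8.45e-04), and LAMB1 by -0.60 ± 0.19 (adjusted p = 0.0132). With a GC correction neither was called (-0.14 and -0.36), and the LAMB1 call was also lost with factors from accessible regions (-0.34), without BT-549 DOX replicate 2 (-0.45) and without DU-145 DOX replicate 3 (-0.52). ITGA7 differed by -0.48 ± 0.10, but by -0.09 over bins nearest to its own TSS, where it was not called. ITGA2 differed by 0.71 ± 0.27 (adjusted p = 0.0386), where the BT-549 vehicle libraries held 10.3, 10.8 and 14.7 and the DOX libraries 29.0, 11.5 and 11.8. Its BT-549 change was not called, and without BT-549 DOX replicate 1 the difference was 0.17 (adjusted p = 0.669). The ITGA2 call was also lost with limma (0.56), with a GC correction (0.62) and on leaving out any of 6 other libraries (0.62 to 0.71). ITGB4 differed by -0.64, a call that was lost with bins nearest to its own TSS (-0.24), a window of 5 kb (-0.27), factors from accessible regions (-0.38), without BT-549 DOX replicate 1 (-0.46) and without DU-145 DOX replicate 2 (-0.57). The 10 shared bins of ITGA2 gave -0.16 ± 0.14 in DU-145, not called, so the rise of the whole ITGA2 window in DU-145 came from bins absent from the BT-549 table. ITGA6, ITGAV, ITGA3, LAMA5 and LAMC1 did not pass this test, at 0.09 ± 0.14, -0.32 ± 0.16, 0.22 ± 0.11, 0.17 ± 0.09 and -0.14 ± 0.10. With factors from accessible regions ITGA3 (0.49), LAMA5 (0.43) and ITGA6 (0.36) passed it. ITGAV passed it without BT-549 DOX replicate 1 (-0.42), DU-145 DOX replicate 2 (-0.41) or DU-145 vehicle replicate 1 (-0.43), and ITGA3 without BT-549 vehicle replicate 2 (0.30) or DU-145 DOX replicate 2 (0.31). Read by whole windows, ITGA6, ITGB2 and LAMA5 were higher in both lines and ITGA4 was lower in both. The ITGA4 bins of the 2 tables did not coincide, and its BT-549 region was not called. The DU-145 call of LAMA5 was lost with library sums (0.09). Of the ITGB2 window, 48.7% in DU-145 and 66.2% in BT-549 lay nearest to PTTG1IP. Calls alike or opposite in both lines were not counted over all gene windows, so they are not shown to be particular to the members.

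Before DOX, the lines differed at most members. In vehicle, 16 of 28 members were higher in DU-145 and 10 were lower, which is 92.9% beside 75.6% over all windows (37.5% higher and 38.2% lower). At a change of at least 2-fold, 4 were higher and 5 lower, or 14.3% and 17.9%, beside 8.11% and 9.78% over all windows. The largest differences toward DU-145 were at ITGA2, ITGA3, ITGB3 and LAMB3. ITGA2 was at 59.8, 52.1 and 54.7 in DU-145 and 10.3, 10.8 and 14.7 in BT-549 (2.24 ± 0.17; adjusted p = 1.79e-16). ITGA3 was at 340, 375 and 376 against 98.6, 110 and 98.2 (1.83 ± 0.08; adjusted p = 2.12e-25). ITGB3, the partner of ITGAV in osteoclasts and platelets, differed by 1.56 ± 0.15 (adjusted p = 6.99e-13), and LAMB3 by 1.25 ± 0.10 (adjusted p = 2.05e-15). In each of these genes every DU-145 library exceeded every BT-549 library. ITGA6 and LAMA5 were higher by 0.42 ± 0.09 and 0.38 ± 0.07.

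The largest differences toward BT-549 were at LAMA2, LAMA4, LAMB1 and ITGA9. LAMA2 was at 45.5, 63.1 and 61.9 in DU-145 against 206, 186 and 226 in BT-549 (-1.85 ± 0.10; adjusted p = 5.81e-21). LAMB1 was at 26.7, 32.8 and 31.3 against 74.0, 74.9 and 69.7 (-1.27 ± 0.12; adjusted p = 1.60e-12). LAMA4 differed by -1.52 ± 0.19, ITGA9 by -1.23 ± 0.22, ITGA11 by -1.03 ± 0.22 and ITGB1 by -0.45 ± 0.08, the last being -0.14 and not called with factors from accessible regions. LAMC1 was lower by -0.16 ± 0.07 (adjusted p = 0.0319), a call that was lost with bins nearest to its own TSS (-0.15), with library sums (-0.13), on leaving out any BT-549 vehicle library (-0.15 to -0.14), DU-145 vehicle replicate 2 (-0.14) or 3 (-0.17), or DU-145 DOX replicate 1 (-0.14) or 2 (-0.15), and that turned to 0.15 with factors from accessible regions. ITGAV was not called, at 91.3 ± 12.2 (SD, n = 3) in DU-145 and 98.6 ± 4.12 in BT-549, and was 0.20 with factors from accessible regions. ITGB8 was not called (-0.20 ± 0.09). The mesenchymal markers moved with this contrast, as 5 of the 6 tested were lower in DU-145 and 0 higher (PRRX1 -1.99, FN1 -1.74 and ZEB2 -1.27), and 3 of 7 epithelial markers were higher (ESRP2 0.90, CLDN4 0.78 and ST14 0.75) with 1 lower. Their summed coverage in vehicle was 261 to 282 in DU-145 and 701 to 747 in BT-549 for the mesenchymal list, and 1203 to 1274 and 488 to 526 for the epithelial list, each over the bins of its own table. Their part in the members' values was not tested.

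**Figure D3:**
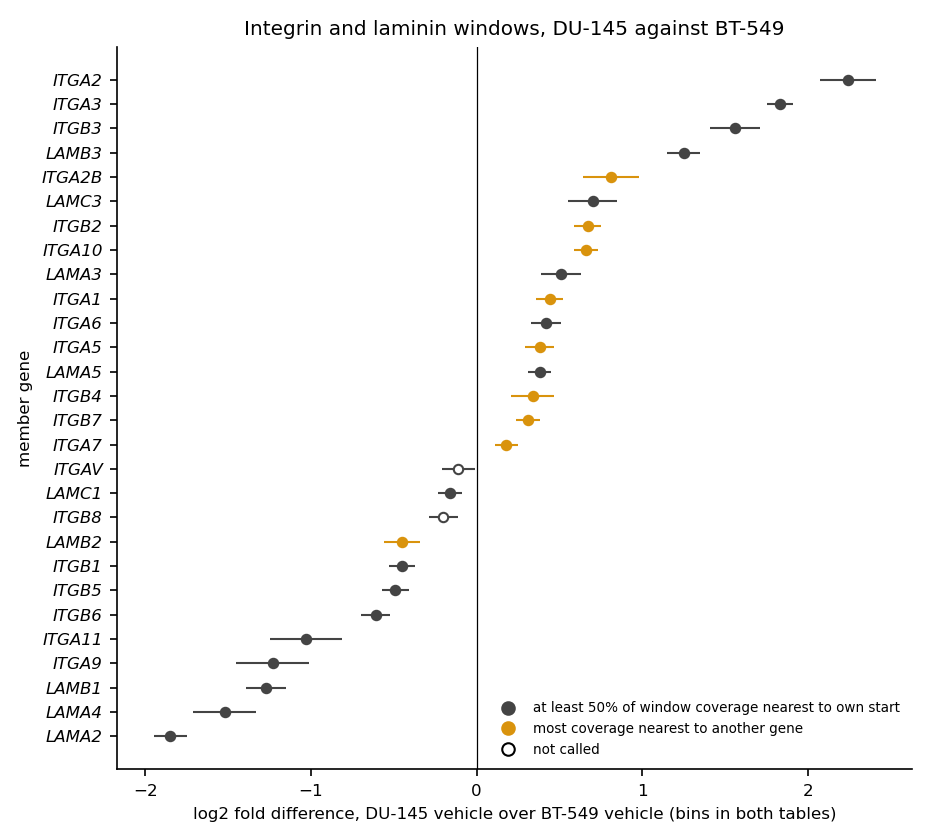
Log2 fold difference between vehicle libraries of DU-145 and BT-549 (horizontal axis, bars ± SE) for the 28 members with shared bins, 3 libraries each, open points not called, orange points for windows with most coverage nearest to another gene. ITGA2, at 2.24, and LAMA2, at -1.85, mark the ends.

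Windows that hold a neighbouring gene need care in the comparison of the lines. With bins nearest to the member's own TSS alone, ITGA10 turned from 0.66 to -0.71, ITGA5 from 0.38 to -0.30 and ITGB4 from 0.34 to -0.36, and the counts became 12 higher and 11 lower. Of the coverage in these windows, 1.05%, 39.6% and 9.70% lay nearest to the named gene, and the main neighbours were ANKRD35, ZNF385A and GALK1. Levels between genes were compared per bin. Among windows nearest throughout to their own gene, LAMA1 was the most open in DU-145 vehicle, at 1.98 ± 0.0533 CPM per bin (SD, n = 3), followed by ITGB8 at 1.90 ± 0.111, whose SDs overlapped. LAMA4 and ITGA8 were the least open, both at 0.328. In BT-549 vehicle, LAMA2 was the most open at 3.04 ± 0.231, followed by ITGA4 at 2.72 ± 0.128 and ITGB8 at 2.68 ± 0.431, which were within their SDs of each other. ITGA2 was the least open of them, at 0.984 ± 0.191.

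Accessible regions, the runs of adjoining bins, showed where in a window coverage changed. Member windows held 240 regions of 79177 in DU-145 and 141 of 46298 in BT-549. In DU-145, 77 regions (32.1%) were higher with DOX and 63 (26.2%) lower, beside 30.0% and 25.5% of all regions, of which 55.5% were called. At the cutoffs that the study used for differentially accessible regions (DARs) in this line, a change of at least 2-fold and an adjusted p under 1e-05, 28 were opening and 9 closing, or 11.7% and 3.75%, beside 10.9% and 4.30%. In BT-549, 26 (18.4%) were higher and 11 (7.80%) lower, beside 15.9% and 14.8% of all regions, of which 30.6% were called. The number lower was 6 without vehicle replicate 2 and 7 without vehicle replicate 3, and the number higher was 14 when the highest bin replaced the sum. At the cutoffs for BT-549 (2-fold, adjusted p under 0.01), 9 were opening and 3 closing, or 6.38% and 2.13%, beside 4.70% and 7.19%. Values of regions are scaled by factors from all regions of a line and are not on the scale of the windows.

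Of the DU-145 regions, 6 are described by the smallest adjusted p, and none lay within 1 kb of a TSS. The ITGA5 intron region (chr12:54411101-54412600), 1877 bp downstream of a TSS, was at 6.64, 6.85 and 5.07 in vehicle and 36.1, 35.5 and 33.6 in DOX (2.48 ± 0.13; adjusted p = 3.56e-16). It is the region of the TEAD letters shown above. The ITGA2 intron region (chr5:53004801-53005500) rose from 1.09, 0.793 and 0.381 to 7.2, 7.2 and 9.02 (3.35 ± 0.27; adjusted p = 4.88e-12). An intergenic region 4926 bp upstream of LAMB3 (chr1:209655501-209657900) rose from 33.0, 29.4 and 32.0 to 73.7, 72.4 and 71.9 (1.21 ± 0.09; adjusted p = 4.96e-13). In each of the 3 the groups stood far apart.

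Closing regions of DU-145 included introns of ITGA4 and LAMA2 where little coverage was left with DOX. The ITGA4 intron region (chr2:181483901-181484600) was at 13.4, 10.5 and 10.5 in vehicle and 0.934, 0.833 and 0.750 in DOX (-3.78 ± 0.23; adjusted p = 5.19e-15), and the LAMA2 intron region (chr6:129110601-129111400) was at 9.82, 9.64 and 10.6 against 0.978, 0.659 and 0.694 (-3.72 ± 0.24; adjusted p = 1.52e-14). An intergenic region 4702 bp upstream of LAMA3 (chr18:23683801-23685200) fell from 15.0, 15.8 and 19.2 to 3.05, 4.03 and 3.17 (-2.27 ± 0.17; adjusted p = 7.88e-13). The LAMA2 and LAMA3 windows as wholes were not called. Within members, all 5 ITGA2 regions and 10 of 14 LAMB3 regions were higher and none lower, whereas 9 of 14 ITGB1 regions were lower and 1 higher. LAMA3 had 4 regions higher and 5 lower. Over all regions, 30.0% were higher and 25.5% lower.

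In BT-549, the 6 regions with the smallest adjusted p were those of ITGB1, LAMA5, LAMA4 and LAMC3, and all 6 rose. The ITGB1 promoter region (chr10:32957301-32959100, over an exon of the divergent transcript ITGB1-DT) was at 44.7, 53.2 and 35.8 in vehicle and 102, 110 and 84.2 in DOX (1.14 ± 0.14; adjusted p = 4.23e-07). The ITGB1 intron region (chr10:32980101-32983900), whose highest bin carries the AP-1 letters shown above, rose from 78.8, 85.2 and 65.8 to 124, 183 and 139 (0.95 ± 0.12; adjusted p = 1.47e-06). The DOX libraries exceeded the vehicle libraries in both. A LAMA5 intron region beside an internal start (chr20:62310401-62311100) rose from 2.38, 3.34 and 3.68 to 13.7, 9.23 and 13.9 (2.0 ± 0.31; adjusted p = 1.73e-05). A second LAMA5 intron region (chr20:62356501-62360200) rose by 0.73 ± 0.13 (adjusted p = 1.05e-04), but not by its highest bin alone (0.50; adjusted p = 0.206).

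LAMA4 and LAMC3 complete the BT-549 regions. The LAMA4 region (chr6:112218501-112219000) rose from 3.07, 2.82 and 5.50 to 17.0, 15.2 and 9.56 (1.90 ± 0.32; adjusted p = 5.05e-05). It lay inside the gene, 1997 bp upstream of an internal start and over an exon of the transcript ENSG00000270661. The LAMC3 promoter (chr9:131008801-131009600) rose from 3.64, 4.88 and 3.81 to 15.9, 17.1 and 9.39 (1.75 ± 0.30; adjusted p = 5.86e-05). Both had DOX libraries wholly above vehicle, with DOX replicate 3 the lowest. Of 20 LAMA5 regions, 12 were higher and none lower, beside 15.9% higher and 14.8% lower over all regions. Among the higher ones, the region starting at 62301401 lay nearest to ADRM1 and those at 62378501 and 62386301 nearest to RPS21. The groups overlapped in the higher regions starting at 62307701, 62309801, 62353001, 62360901 and 62378501.

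Some stretches of DNA were called in both lines. Among 120 pairs of overlapping regions, 6 were higher in both lines (5.0%) and 3 lower in both (2.50%), beside 3.71% and 3.65% of all 32671 overlapping pairs of the 2 tables. A further 7 were lower in DU-145 and higher in BT-549 (5.83%) and 1 was the reverse (0.833%), beside 8.32% and 3.08% of all pairs, so the shares of opposite calls were below those over all pairs. The difference between lines was not tested by region. At the ITGB1 promoter, DU-145 was at 44.5, 42.8 and 50.2 in vehicle and 17.5, 25.7 and 23.7 in DOX (-1.03 ± 0.11; adjusted p = 4.12e-09), in contrast to the rise in BT-549. The ITGB1 intron region that rose in BT-549 was not called in DU-145, at 50.5, 61.1 and 61.7 against 48.5, 61.9 and 57.5. The promoters of ITGA3 and LAMC3, an ITGB5 intron region and a region near ITGB6 were singled out after their values were seen. The ITGA3 promoter was at 86.6, 110 and 103 in DU-145 vehicle and 48.6, 66.8 and 56.2 in DOX (-0.80 ± 0.10; adjusted p = 2.02e-08), but at 21.1, 25.7 and 20.2 in BT-549 vehicle and 45.8, 46.1 and 35.3 in DOX (0.91 ± 0.17; adjusted p = 1.79e-04). The LAMC3 promoter in DU-145 was at -0.52 ± 0.16 (adjusted p = 0.00716). An ITGB5 intron region beside an internal start rose in both lines, by 0.87 ± 0.10 (adjusted p = 3.53e-09) and 0.99 ± 0.18 (adjusted p = 1.40e-04). The region at another ITGB5 start (chr3:124886001-124887900 in DU-145) was lower in DU-145 (-0.40; adjusted p = 0.00241) and not called in BT-549 (-0.25). A region 9338 bp upstream of ITGB6 rose by 1.45 in DU-145 and fell by 1.48 on the log2 scale in BT-549.

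**Figure D4:**
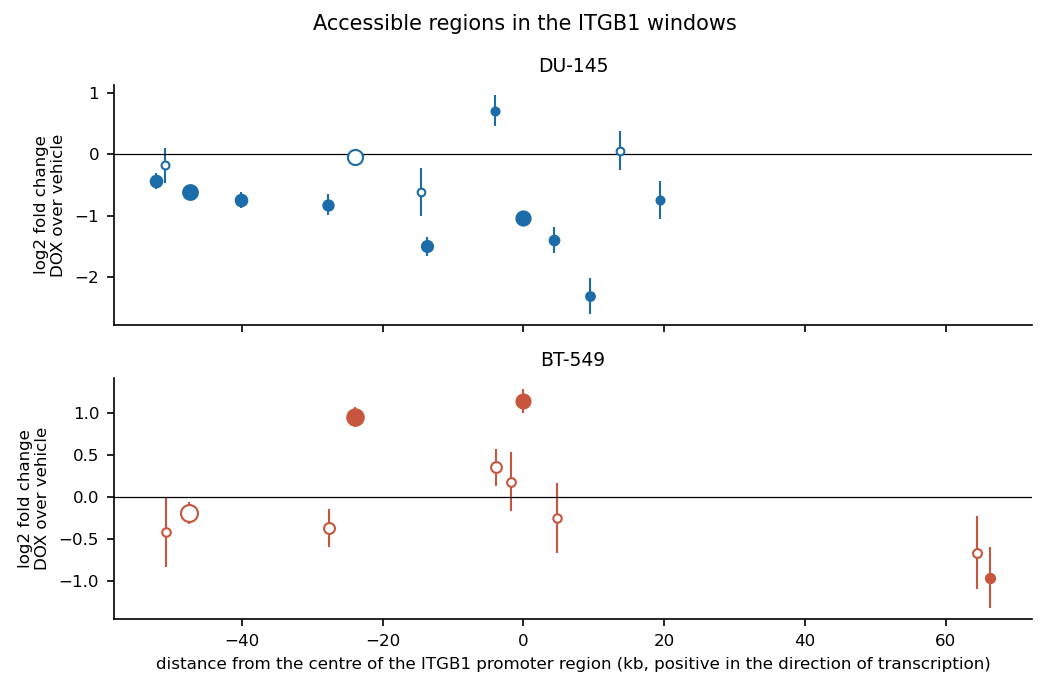
Log2 fold change with DOX (vertical axis, bars ± SE) of each accessible region in the ITGB1 windows against its distance in kb from the centre of the promoter region, in DU-145 (top, 14 regions) and BT-549 (bottom, 10 regions), filled points called, point size rising with the vehicle level. The promoter, at 0 kb, was at -1.03 in DU-145 and 1.14 in BT-549.

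**Figure D5:**
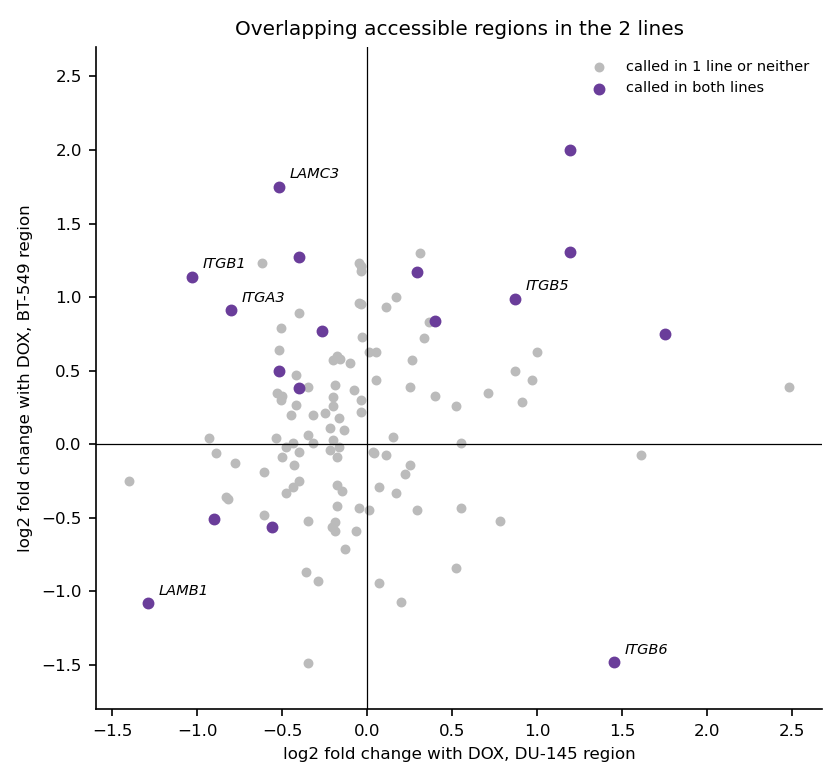
Log2 fold change with DOX of 120 pairs of overlapping member regions, DU-145 on the horizontal and BT-549 on the vertical axis, purple where both regions were called. The 7 purple points at upper left, among them ITGB1, ITGA3 and LAMC3, were lower in DU-145 and higher in BT-549.

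Sequence content of the called regions was described without a test. AP-1 letters (either strand, anywhere in the region) were in 41 of the 77 higher DU-145 member regions (53.2%) and in 11 of the 63 lower ones (17.5%), beside 55.0% and 29.0% over all higher and lower regions and 38.5% of the whole table. In BT-549 they were in 42.3% of higher and 45.5% of lower member regions, beside 28.4% and 41.8% over all and 27.2% of the table. The median GC content was 48.3% in higher and 52.8% in lower DU-145 member regions, and 63.9% and 49.3% in BT-549. Higher member regions were a median of 700 bp long in DU-145 and lower ones 1100 bp, beside 600 and 1100 bp over all regions. Of the DU-145 regions within 1 kb of a member TSS, 19.6% were higher and 35.3% lower, and of those beyond, 35.4% were higher and 23.8% lower. In BT-549 the corresponding shares were 23.8% and 7.14%, and 16.2% and 8.08%. The split by distance was not made over all regions, so it is not shown to be particular to the members. The part of GC content in the changes was tested through a GC correction, whose effect is given with the other alternatives.

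The peak lists of single libraries, from whose merged peaks the authors cut the bins, gave another view of the same reads. They are not independent of the bin values. A peak summit within 1 kb of a TSS was present in at least 2 of 3 libraries for 28 members with vehicle and 27 with DOX among DU-145 libraries. The counts for BT-549 were 28 and 23, the last from the group with the lowest coverage. ITGA4 had such a summit in 0 libraries of DU-145 and in all 6 of BT-549, at a fold enrichment over background of 23.7 to 27.2 in vehicle and 8.39 to 9.31 in DOX. Lower enrichment in the BT-549 DOX libraries was not particular to ITGA4. The mean was lower with DOX for 22 of 23 members with a summit in both groups, at a median ratio of 0.43. ITGB1 was included (65.9, 82.1 and 44.3 against 17.3, 26.4 and 24.3), although its promoter region rose by 1.14 ± 0.14 in the scaled bins of these libraries. The BT-549 DOX libraries had the lowest coverage, and the part of depth in the enrichment was not tested. In DU-145 the median ratio was 0.86 over 27 members. Peak presence and enrichment were not taken over all genes, so these values are not shown to be particular to the members. LAMA4 had one in 2 of 3 DU-145 vehicle libraries (5.51 and 5.29) and in all 3 DOX libraries (11.4, 15.1 and 12.5). At ITGA2 the summit of the peak over the TSS lay at -4, 27 and -28 bp in DU-145 vehicle but at -1430, -1385 and -1390 bp in DOX, and the enrichment was 71.6, 69.2 and 55.9 against 105, 123 and 117. In BT-549 the ITGA2 summits stayed within 1 kb where a peak was called, in 2 of 3 DOX libraries, at an enrichment of 5.28 to 9.65. The ITGA2 summits were examined after their values were seen.

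Other adhesion genes were read from lists chosen from general knowledge. Of 26 genes for the integrin adhesion complex, 6 were higher and 6 lower in DU-145 with DOX, and 5 and 7 in BT-549. All windows were called at 24.2% higher and 24.5% lower in DU-145 and at 15.3% and 14.9% in BT-549, so the count in DU-145 was near the background. In DU-145, talin TLN2 (0.46 ± 0.07) and paxillin PXN (0.35 ± 0.05) rose, whereas ITGB1BP1, which binds the ITGB1 tail, fell (-0.45 ± 0.07). In BT-549, the adaptors BCAR1 (-0.65 ± 0.09), ZYX (-0.71 ± 0.11) and ILK (-0.67 ± 0.10) all fell. Of 11 basement membrane and hemidesmosome genes tested, 6 were higher and 2 lower in DU-145, led by the hemidesmosomal collagen COL17A1 (1.02 ± 0.09), NID2 (0.54 ± 0.07) and NTN4 (0.43 ± 0.06). In BT-549, 2 were higher and 4 lower, the latter including SPARC (-1.01 ± 0.09) and NID1 (-0.61 ± 0.14). Of 13 integrin ligand genes other than laminins, 5 were higher and 3 lower in DU-145, and 3 and 2 in BT-549. Fibronectin FN1, the ligand of ITGA5, rose by 0.93 ± 0.12 in DU-145 and fell by 0.88 on the log2 scale in BT-549. The median log2 fold changes of the 3 lists in turn were 0.01, 0.15 and 0.10 in DU-145 and -0.10, -0.17 and -0.14 in BT-549, beside -0.01 and -0.00 over all windows.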

How the data were processed

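ATAC-seq libraries of DU-145 and BT-549 cells were grouped by the labels, whose fields name the vehicle cells either untreated or DMSO. Per the methods and the processing notes, the authors used bwa-mem (GRCh38) for alignment and Picard for duplicates, called peaks in each library with MACS2 2.2.7.1 (q 0.05), merged regions found in at least 3 replicates and cut them into 100-bp bins. The deposited tables hold estimated counts, the mean fragment coverage of each bin, with no depth scaling, and the tables of the lines hold different bins. The deposited peak lists give the fold enrichment ratio, and −log10 of p and of q, for each peak.

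Bins within 20 kb of any TSS were summed per gene, and adjoining bins per region, and the sums were rounded. Sums were tested with the quasi-likelihood F test of edgeR 4.0.16 (R 4.3.3; robust, TMM factors on the tested sums, library sums over all bins, total of at least 10 over the libraries). The vehicle comparison and the difference between lines used bins in both tables and all 12 libraries. SE was taken from the F statistic. P-values were adjusted by the Benjamini-Hochberg method over all genes or regions. The scripts were tested on simulated data. Alternatives were DESeq2 1.42.0, limma 3.58.1 on log2(value + 1), RLE factors, library sums, other filters and windows, a GC correction, a replicate block and leaving out each library. The 8 members with the smallest p per comparison, 9 broadly used subunits, and the 6 regions per line with the smallest adjusted p (at most 2 per member) were named, and up to 3 genes per other list. The other members were named to account for all. Members were chosen by family and the other lists from general knowledge, in both cases with earlier results of these data known. The replicates were described as biologically independent, and p-values measure the spread between them.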

Additional observations from a re-analysis of the deposited data

Results flagged for a closer look

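The DOX effect differed between the lines at an adjusted p under 0.05 (edgeR, difference of BT-549 minus DU-145 on the log2 scale, over bins in both tables) for 13 members. The difference was negative for LAMA4 (-1.66), ITGA11 (-1.66), ITGA9 (-1.43), ITGB8 (-0.98), ITGA5 (-0.71), ITGB5 (-0.69), ITGB4 (-0.64), LAMA2 (-0.63), LAMB1 (-0.60) and ITGA7 (-0.48). It was positive for ITGA2 (0.71), LAMC3 (0.68) and ITGB1 (0.54). The ITGA11 and ITGA9 values rest on 6 and 7 shared bins. The ITGA2 difference was 0.17 without BT-549 DOX replicate 1, the single BT-549 DOX library with a high value, and the ITGB4 difference was -0.46 without that replicate, -0.57 without DU-145 DOX replicate 2, -0.38 with factors from accessible regions and -0.24 over bins nearest to its own TSS, none of them called. The LAMC3 call was lost without BT-549 DOX replicate 1 (0.53), DU-145 DOX replicate 1 (0.59) or DU-145 vehicle replicate 3 (0.60). The BT-549 DOX libraries, with a summed coverage of 2502510 to 3267024, were shallower than the other libraries, at 9142900 to 25232000, and the part of depth in these differences was not tested. With all 12 libraries in 4 groups of 3, no outlier test of single libraries was made.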

How the results depend on the processing

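No count of members moved by over 1.5 times under DESeq2, limma, RLE factors, the filters or the GC correction. With TMM factors from accessible regions, chosen after seeing the data, the members called were 7 higher and 13 lower in DU-145, 8 and 4 in BT-549, 6 lower in the vehicle comparison and 7 higher in the difference between lines, as the median of all windows moved to -0.26, 0.15, 0.30 and 0.27. The share of all calls that were higher went from 49.7% to 14.8% in DU-145 (36.7% with library sums), from 50.6% to 79.0% in BT-549 (61.7%), from 49.6% to 70.1% in the vehicle comparison and from 49.3% to 83.3% in the difference between lines. Bins nearest to the own TSS left 3 lower in DU-145, and windows of 5 kb left 2 lower in DU-145 and 2 higher in BT-549. Library sums gave 41 lower member regions in DU-145 and 18 in BT-549, and the highest bin gave 14 higher in BT-549. The causes were not tested.

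Leaving out each library gave 9 to 12 higher and 5 to 6 lower members in DU-145, 3 to 6 and 5 to 7 in BT-549, 15 to 16 and 9 to 11 in the vehicle comparison, 1 to 4 and 9 to 11 in the difference between lines, and 69 to 74 and 55 to 62 regions in DU-145 and 19 to 28 and 6 to 13 in BT-549.

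Changes of sign were found for LAMB1 in DU-145 (-0.14 with the GC correction, -0.21 with factors from regions, -0.02 with library sums and -0.02 without DOX replicate 3, with 0.11 at most on leaving out another library), for ITGAV in DU-145 (0.02 without DOX replicate 2 and 0.02 without vehicle replicate 1, with -0.16 at the lowest on leaving out another), and, with factors from regions, for ITGA3 (-0.14), ITGB4 (-0.07), LAMA5 (-0.10) and LAMC1 (-0.04) in DU-145, ITGA5 in BT-549 (0.03), ITGAV (0.20) and LAMC1 (0.15) in vehicle and LAMC1 in the difference between lines (0.12). With bins nearest to the own TSS, ITGB4 in BT-549 was 0.08, and in vehicle ITGA10 was -0.71, ITGA5 -0.30 and ITGB4 -0.36. With 5 kb, ITGB4 in BT-549 was 0.05, and in vehicle ITGA10 was -0.71, ITGA5 -0.29, ITGAV 0.03 and ITGB4 -0.35. Windows of 5 kb held no bins of ITGA4 in DU-145 or of ITGA11 in BT-549.

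The replicate numbers were not taken to pair the samples. Same-numbered libraries deviated together at r of 0.200, 0.104 and -0.0466 in DU-145 and 0.0113, 0.164 and 0.0528 in BT-549, and not every library correlated best with its own number. With the replicate block, 12 members were higher and 6 lower in DU-145, 5 and 8 in BT-549, and 3 and 10 in the difference between lines, and member regions were 76 higher and 63 lower in DU-145 and 22 and 9 in BT-549. Peaks with a q under 0.01 near a TSS were found for 28, 27, 26 and 22 members in the 4 groups, and summits within 3 kb for 28, 29, 28 and 24.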
